A study of Rattus norvegicus with 12 samples.

Results

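This account describes 53 genes of the extracellular matrix and its remodelling enzymes in rat hypothalamic tissue: collagens, laminins, the linking glycoproteins Sparc, Fn1 and Nid2, matrix metalloproteinases (MMPs) and the tissue inhibitors of metalloproteinases (TIMPs). They were chosen by symbol among the 17310 genes of the files and by a mean level of at least 0.5 CPM (a gene's fragment count scaled to the library's total count) over the 12 libraries. Of 63 symbols with such a name, 53 reached that level and 10 did not. Several genes of basement membranes, Col4a2, Lama2, Lamb1, Nid1 and Hspg2, were not in the files under these symbols. Timp1 was the lowest of the genes kept, at a mean of 0.593 CPM, and Mmp3 was the highest of those below, at 0.0884 CPM. The CPM values given below for libraries, group means and sums also carry a scaling factor for each library. All 53 passed the filter on low counts and were among the 12856 genes tested.

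The tissue held the paraventricular nucleus of the hypothalamus (PVH) and came from wild-type male Wistar rats aged 12 weeks. Polyadenylated RNA was sequenced in 12 libraries, 2 for each of 6 groups. Rats given high corticosterone for 12 days are called high Cort. Acute corticosterone preceded sampling by 3 h in the group called 3 h acute and by 1 h in that called 1 h acute. Adrenalectomised rats given corticosterone are called supplemented ADX, rats 7 days after adrenalectomy ADX, and sham-adrenalectomised rats sham. In rats, corticosterone is the chief glucocorticoid and comes from the adrenal glands. The labels give no dose or route of corticosterone and no vehicle group, and the titles of the high Cort libraries name no surgery. The labels do not say whether the acutely treated rats had adrenal glands, or whether replicates were single or pooled animals. The p-values therefore reflect library-to-library spread alone, some or all of which may be technical.

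Brain tissue holds little fibrous matrix. Most of its collagens and laminins lie in the basement membranes of blood vessels and in the meninges, where a collagen IV network and a laminin network are joined by linkers such as nidogens. MMPs cut matrix and cell-surface proteins, either from the cell membrane or after secretion, and TIMPs block them. Glucocorticoids are known to lower the expression of several collagens and MMPs in connective tissue.

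The libraries held between 17674159 and 36249006 counted fragments. The PVH markers Crh, Avp, Oxt, Trh, Sim1 and Otp were detected in every library. Libraries differed in measures that the treatments need not set. The summed level of 13 markers of the thalamus, which borders this tissue, ran from 1261 CPM in 1 h acute replicate 2 to 2937 CPM in sham replicate 2. Rn18s, a gene for ribosomal RNA, reached 3568 CPM in replicate 1 of high Cort and lay between 563 and 1718 CPM elsewhere. High Cort replicate 1 was the lowest library for 20 of the 53 genes (37.7%), whereas it was the lowest for 11.3% of all genes tested. The shallowest library, 1 h acute replicate 2, was the lowest for 10 of the 53 genes (18.9%, against 18.3% of all genes).

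Per unit of transcript length, Sparc and Timp2 stood far above the other 51 genes. Levels between genes are given in FPKM (fragments scaled by transcript length and library size), as the mean and range of the 6 libraries of high Cort, ADX and sham, which the authors scaled together. Sparc, a secreted collagen-binding glycoprotein that is abundant in glia and vessels, had 858 FPKM (748 to 1076). Timp2, an inhibitor of MMPs that also takes part in the activation of pro-Mmp2, had 388 FPKM (381 to 394). Among the other inhibitors, Timp3, which binds to the matrix, had 73.6 FPKM (63.8 to 81.4). The mean was 22 FPKM for Timp4 and 1.08 FPKM for Timp1. The 4 inhibitors thus spanned more than 2 orders of magnitude in level.

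Of the MMPs, the membrane-type enzymes were higher than the secreted ones. The 3 highest were Mmp15 at 31.1 FPKM (29.3 to 33.7), Mmp24 at 19.1 FPKM (17.5 to 20.5) and Mmp17 at 13.3 FPKM (12.1 to 14.9). Mmp24 is known as an enzyme of neurons, and Mmp17 is held to the membrane by a lipid anchor. Among the other enzymes the highest were Mmp2 (gelatinase A) at 2.46 FPKM (1.89 to 3.13), Mmp23 at 1.40 FPKM (1.03 to 2.01) and Mmp19 at 1.13 FPKM (0.932 to 1.36). Mmp23 is counted with the secreted enzymes here, although it is made with a membrane anchor that is cleaved off.

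The highest fibrillar collagens were Col11a2 at 42.8 FPKM (37.2 to 46.7), Col11a1 at 15.2 FPKM (12.2 to 19.01) and Col5a2 at 11.8 FPKM (10.1 to 13.04), the chains of the minor collagens XI and V. The main collagens of connective tissue were lower, with means of 3.93 FPKM for Col1a1 and 2.84 FPKM for Col3a1. Col4a1, a chain of the collagen IV network of basement membranes, had 19.3 FPKM (15.5 to 23.5), and Col18a1, the precursor of endostatin, had 5.23 FPKM (4.47 to 5.91). Col4a3, a collagen IV chain best known from the kidney, had 4.81 FPKM (4.09 to 5.63). The laminin chains were led by Lamb2 at 22.1 FPKM (21.3 to 22.8), Lamc1 at 17.9 FPKM (16.3 to 19.2) and the vascular chain Lama4 at 5.45 FPKM (3.74 to 6.79). Fn1, fibronectin, had 10.4 FPKM (8.97 to 12.8), and Nid2, nidogen-2, had 2.25 FPKM (1.59 to 2.88).

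Genes of the remaining collagen classes had means of 8.04 FPKM or lower. Col6a2, a chain of the microfibrillar collagen VI, had a mean of 4.62 FPKM, Col8a1 1.54 FPKM and Col7a1, the collagen of anchoring fibrils, 0.690 FPKM. The collagens that decorate fibrils were led by Col16a1 at 8.04, Col9a2 at 7.17 and Col14a1 at 0.719 FPKM. Of the transmembrane collagens, Col23a1 averaged 4.51, Col13a1 1.14 and Col17a1 0.156 FPKM. Col26a1 averaged 0.235 FPKM.

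**Figure D1:**
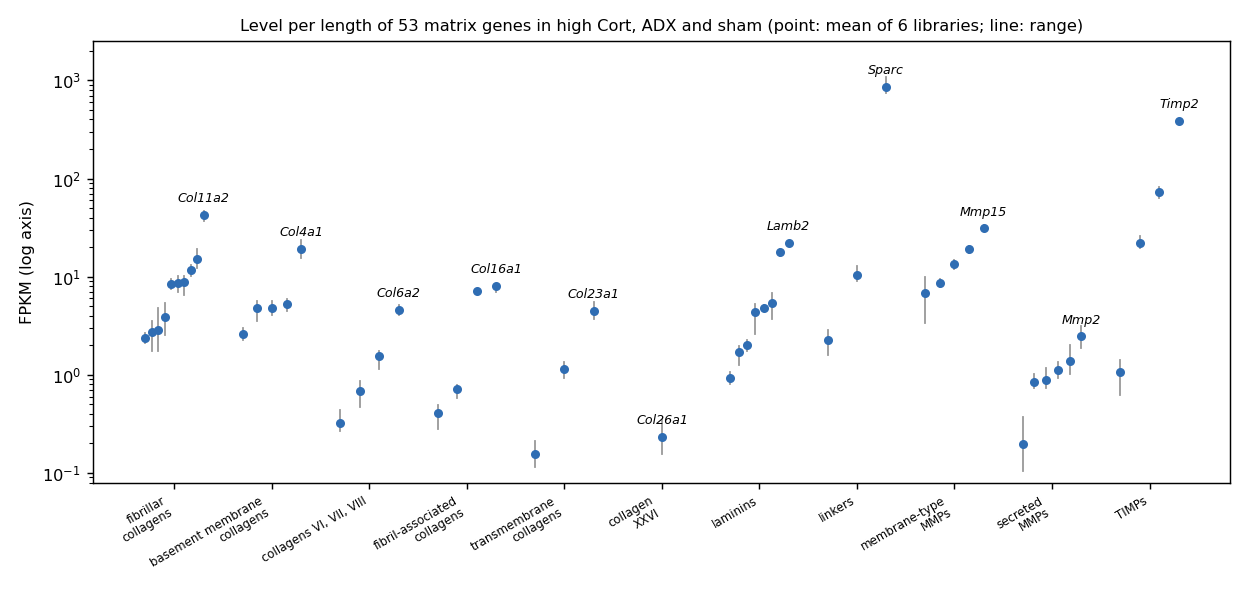
Level of each of the 53 genes in FPKM (log axis) by class; points are means and lines are ranges over the 6 libraries of high Cort, ADX and sham. Sparc (858 FPKM) and Timp2 (388 FPKM) lie above the rest, and the named gene is the highest of its class.

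The sequences before the transcription starts are shown for 4 of the 14 genes that changed between high Cort and ADX, a pair that fell (Lama4 and Col4a1) and a pair that rose (Timp3 and Sparc), so that both directions are represented. RefSeq's promoter table for the assembly GRCr8, which is not the rn6 build of the processing notes, held an entry for 38 of the 53 genes. Each sequence is the 250 bases just upstream of the start on the gene's strand. Capitals mark matches, on either strand, to the TATA box (TATAAA), the CCAAT box, which reads ATTGG on the other strand, and the GC box (GGGCGG), which reads CCGCCC on the other strand. The arm of the glucocorticoid response element (AGAACA) and the AP-1 motif (TGACTCA) were searched too and are not in these 4 windows. Lama4 lies on the plus strand at chr20:43946648-43946897, Col4a1 on the plus strand at chr16:84885347-84885596, Timp3 on the minus strand at chr7:19459559-19459808 and Sparc on the minus strand at chr10:40038817-40039066.
Lama4: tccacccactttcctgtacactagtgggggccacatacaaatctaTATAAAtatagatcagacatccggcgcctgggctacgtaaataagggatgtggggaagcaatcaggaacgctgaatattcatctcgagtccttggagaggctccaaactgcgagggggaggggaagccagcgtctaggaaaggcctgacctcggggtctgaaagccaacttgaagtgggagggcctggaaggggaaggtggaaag
Col4a1: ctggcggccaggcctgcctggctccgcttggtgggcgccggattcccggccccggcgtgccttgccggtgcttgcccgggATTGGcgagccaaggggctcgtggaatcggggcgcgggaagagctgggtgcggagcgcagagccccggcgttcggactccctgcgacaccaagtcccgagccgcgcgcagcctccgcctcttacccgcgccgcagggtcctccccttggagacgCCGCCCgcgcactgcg
Timp3: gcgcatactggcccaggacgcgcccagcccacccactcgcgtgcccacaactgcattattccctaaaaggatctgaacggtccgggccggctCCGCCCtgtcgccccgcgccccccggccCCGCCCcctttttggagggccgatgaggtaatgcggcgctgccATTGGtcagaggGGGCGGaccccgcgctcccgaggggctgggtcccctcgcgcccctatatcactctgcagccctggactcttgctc
Sparc: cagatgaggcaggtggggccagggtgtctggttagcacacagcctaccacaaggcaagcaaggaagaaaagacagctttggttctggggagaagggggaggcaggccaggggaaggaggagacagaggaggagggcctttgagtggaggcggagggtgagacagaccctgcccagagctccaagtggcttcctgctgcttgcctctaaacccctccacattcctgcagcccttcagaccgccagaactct
The 4 windows shared no common set of these motifs. Timp3 held 3 copies of GGGCGG and 1 of CCAAT, Col4a1 held 1 of each, Lama4 held 1 TATAAA and Sparc held none. Over the 38 genes, GGGCGG occurred in 60.5% of windows, against 32.4% of 27457 windows of the same length, and CCAAT in 21.1% against 34.3%. TATAAA occurred in 10.5% of the 38 against 13.1% of all. Their median GC content was 62.0% against 52.0%. The full palindromic glucocorticoid response element (AGAACA and its reverse complement with a gap of 3 bases) was in none of the 38 and in 0.00364% of all windows, and the single arm AGAACA was in 18.4% against 17.1%. The AP-1 motif TGACTCA was in none of the 38 and in 3.98% of all windows. These matches describe the letters of the windows and are no evidence of binding.

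Comparing high Cort with ADX sets added corticosterone for 12 days against removal of its source for 7 days. The treatments thus also differed in length, and the part of this was not tested. Most of the calls were made in this comparison. Of the 53 genes, 14 were called (edgeR's quasi-likelihood test, Benjamini-Hochberg adjusted p under 0.05 over all genes), which is 26.4%, against 5.77% of all genes tested. In high Cort, 10 were lower (18.9%, against 2.27% of all genes) and 4 were higher (7.55%, against 3.5% of all genes). Those that fell were Col3a1, Mmp14, Col1a1, Lama4, Nid2, Mmp2, Col11a1, Col4a1, Col5a3 and Col5a2, which are structural chains, 1 linker and a pair of enzymes. Those that rose were Sparc, Fn1, Timp3 and Mmp24. The median log2 fold change of the 53 genes was -0.15, against 0.0098 for all genes tested. The groups did not overlap for 39 of the 53 genes, and for 53.8% of all genes.

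**Figure D2:**
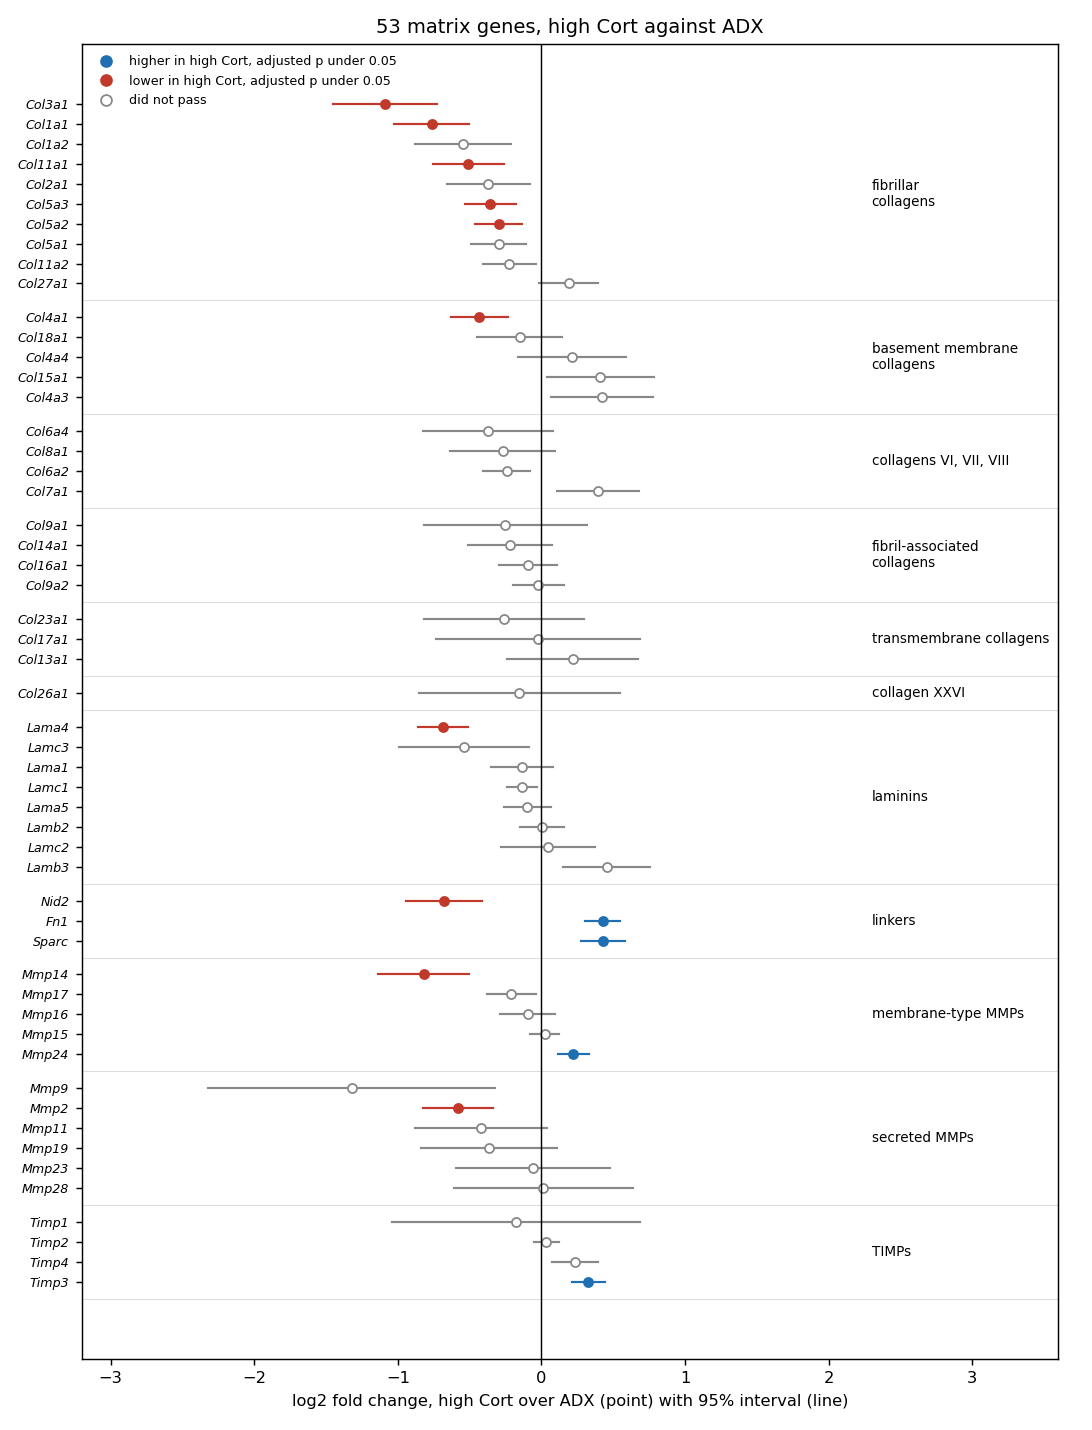
Log2 fold change of each of the 53 genes in high Cort over ADX (points) with its 95% interval (lines), by class; filled points have an adjusted p under 0.05. The filled points left of 0 include 5 of 10 fibrillar collagens, and those right of 0 are Mmp24, Timp3, Fn1 and Sparc.

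Set against all 12 libraries, high Cort lay at the edge for many of these genes. Supplemented ADX and both acute groups were processed in a separate run, and its part in these and later orders over all libraries was not tested. Both high Cort libraries were the lowest of the 12 for 14 of the 53 genes (26.4%, against 5.08% of all genes) and the highest for 6 (11.3%, against 6.81%). The 6 were Fn1, Timp3, Timp4, Mmp24, Col4a3 and Col7a1. By contrast, the sham libraries were the highest for Mmp14, Mmp15 and Col4a4 (5.66%, against 2.19% of all genes). The ADX libraries were the highest for Lama4 (1.89%, against 1.26%) and the lowest for Sparc (1.89%, against 1.36%).

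Markers of the cells that could supply these transcripts also differed between high Cort and ADX. The summed level of 18 endothelial markers was 943 and 955 CPM in the high Cort pair and 1007 and 1018 CPM in the ADX pair, and 6 were called lower and 1 higher. The sum over 14 mural cell (pericyte and smooth muscle) markers was 401 and 415 CPM in the high Cort pair and 426 and 434 CPM in the ADX pair, with 2 of 13 tested called lower. For 19 markers of meningeal fibroblasts it was 264 and 291 CPM in the high Cort pair and 298 and 308 CPM in the ADX pair, with Igf2 and Bgn called lower. The 15 astrocyte markers summed to 11561 and 11234 CPM in the high Cort pair and 10077 and 10295 CPM in the ADX pair, with 5 called higher and 2 lower. Thalamus markers summed to 2778 and 2816 CPM in the high Cort pair and 1927 and 2103 CPM in the ADX pair, with none called. PVH markers summed to 1153 and 1133 CPM in the high Cort pair and 1509.6 and 1506 CPM in the ADX pair. Of the 10 PVH markers, 7 were called lower (Crh, Avp, Trh, Sim1, Otp, Pou3f2 and Pcsk1) and none higher. No gene of these lists found in the files was at 0 in all 12 libraries. The part of these differences in the results was not tested, and in such bulk tissue fewer cells of a type and less RNA per cell cannot be told apart.

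**Figure D3:**
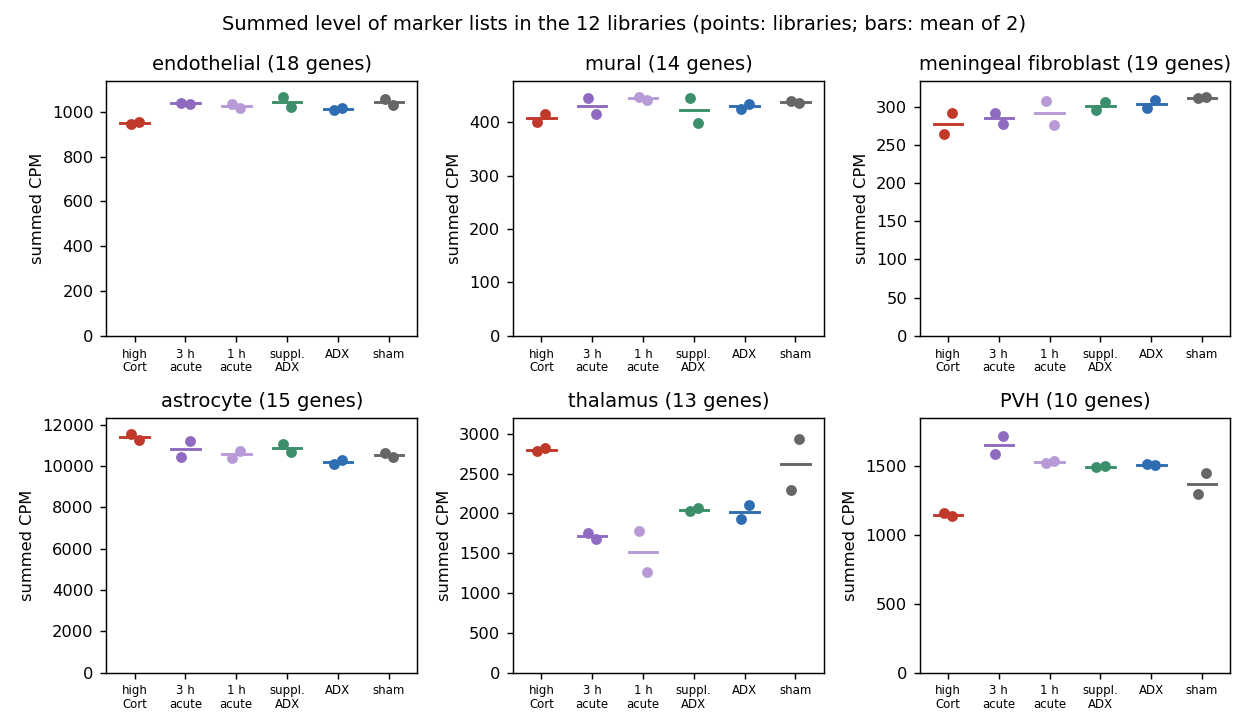
Summed CPM of 6 marker lists in each library (points) with the mean of each group (bars), axes from 0. High Cort has the lowest endothelial sums (943 and 955 CPM) and its thalamus sums (2778 and 2816 CPM) are above those of ADX (1927 and 2103 CPM).

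Fibrillar collagens, the largest class, gave more calls than any other class, although all 3 linkers were called (2 higher and 1 lower). Of 10 fibrillar collagens, 5 were lower in high Cort than in ADX, none was higher, and 9 estimates were negative. Their median log2 fold change was -0.36. Col3a1, the collagen of reticular fibres, stood at 8.17 and 9.38 CPM in the high Cort libraries, 17.1 and 14.9 in 3 h acute, 17.1 and 20.3 in 1 h acute, 14.2 and 15.1 in supplemented ADX, 15.4 and 22.2 in ADX and 11.8 and 12.04 in sham. Both high Cort libraries lay below the other 10, and the ADX pair was widely spread. The difference from ADX was a fall by a factor of 2.13 (log2 fold change -1.09 ± 0.16, adjusted p = 0.00362). Col1a1, a chain of collagen I, stood at 14.5 and 18.04 CPM in the high Cort libraries, 28.3 and 25.2 in 3 h acute, 27.4 and 30.4 in 1 h acute, 22.9 and 21.5 in supplemented ADX, 25.1 and 30.5 in ADX and 21.9 and 24.9 in sham. Both high Cort libraries were again below the other 10. Its log2 fold change against ADX was -0.77 ± 0.12, adjusted p = 0.00286. Sgca, a gene that overlaps Col1a1 in RefSeq, averaged 1.09 CPM, and the strand used in counting is not given in the sources used here.

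The minor fibrillar chains moved less. Col11a1 stood at 93.4 and 100.1 CPM in the high Cort libraries, 144 and 131 in ADX and 120.4 and 107 in sham, with a log2 fold change against ADX of -0.51 ± 0.11, adjusted p = 0.0313. For Col5a3 the levels were 39.2 and 49.2 CPM in the high Cort libraries, 56.02 and 57.5 in ADX and 56.3 and 60.2 in sham, and the change against ADX was -0.36 ± 0.083, adjusted p = 0.0253. It was -0.22 without high Cort replicate 1 and -0.55 without high Cort replicate 2. Col5a2 had 60.98 and 65.3 CPM in the high Cort libraries, 77.8 and 77.7 in ADX and 70.1 and 70.7 in sham, and its change was -0.30 ± 0.077, adjusted p = 0.0381. For these 3 genes the high Cort libraries were also the lowest of all 12. Of the other 5 fibrillar genes, Col1a2 (-0.55 ± 0.15, adjusted p = 0.0579), Col5a1 (-0.30 ± 0.091, adjusted p = 0.0663), Col2a1 (-0.37 ± 0.13, adjusted p = 0.133) and Col11a2 (-0.22 ± 0.082, adjusted p = 0.150) did not pass, and Col27a1 was the one with a positive estimate (0.19 ± 0.095, adjusted p = 0.279).

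Of the basement membrane genes kept here, 1 of 5 collagens, 1 of 8 laminins and Nid2 fell. Lama4, the alpha chain of the laminin of endothelial basement membranes, stood at 22.4 and 27.3 CPM in the high Cort libraries, 35.2 and 31.9 in 3 h acute, 37.1 and 35.1 in 1 h acute, 38.9 and 35.7 in supplemented ADX, 39.9 and 40.2 in ADX and 33.2 and 31.8 in sham. It was lowest in both high Cort libraries and highest in both ADX libraries, while the other 4 groups lay between and 3 h acute overlapped sham and 1 h acute. The log2 fold change was -0.69 ± 0.083, adjusted p = 0.000255. Nid2, which bridges laminin and collagen IV, stood at 7.36 and 7.89 CPM in the high Cort libraries, 14.2 and 11.3 in 3 h acute, 12.8 and 12.1 in 1 h acute, 13.8 and 12.6 in supplemented ADX, 11.3 and 13.3 in ADX and 12.2 and 10.4 in sham. The high Cort pair lay below the other 10 libraries, and the change against ADX was -0.68 ± 0.12, adjusted p = 0.00494. Col4a1 had 101 and 112 CPM in the high Cort libraries, 156 and 161 in 3 h acute, 144 and 161 in 1 h acute, 147 and 129.8 in supplemented ADX, 136 and 152 in ADX and 117 and 133 in sham. High Cort was lowest here too, with a change against ADX of -0.43 ± 0.089, adjusted p = 0.0193.

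The other kept genes of this layer did not pass, and several pointed the other way. Col4a3 had 25.9 and 27.8 CPM in the high Cort pair and 19.98 and 20.1 CPM in the ADX pair (0.42 ± 0.16, adjusted p = 0.162), and Col15a1 had 25.98 and 27.95 CPM in the high Cort pair and 17.9 and 22.7 CPM in the ADX pair (0.41 ± 0.17, adjusted p = 0.198). Lamb3, a chain of laminin-332, had 6.92 and 7.75 CPM in the high Cort pair and 4.93 and 5.82 CPM in the ADX pair (0.45 ± 0.14, adjusted p = 0.0729). Col4a3, Col15a1 and Lamb3 were all lowest in 1 h acute replicate 2, the library with the lowest thalamus sum, at 13.5, 11.8 and 2.77 CPM. Timp3 and Mmp24, both called higher in high Cort than in ADX, were also lowest in that library, at 92.3 and 70.3 CPM. Fn1 and Sparc, the other genes called higher, were instead lowest in ADX replicate 2. The part of the dissection in the levels of all these genes, and so in the calls of Timp3 and Mmp24, was not tested. Lamb2 (0.0071 ± 0.071, 95% interval -0.15 to 0.16), Lamc1 (-0.13 ± 0.050) and Lama5 (-0.10 ± 0.077), other laminin chains, did not pass. Lamc3 had 16.7 and 27.3 CPM in the high Cort pair and 32.6 and 31.9 CPM in the ADX pair (-0.54 ± 0.19, adjusted p = 0.166). The 2 high Cort libraries were far apart, and replicate 2 lay closer to ADX.

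The collagens outside fibrils and basement membranes gave no calls in this comparison. Among 4 chains of collagens VI, VII and VIII, Col6a2 stood at -0.24 ± 0.076, adjusted p = 0.0760 and Col7a1 at 0.39 ± 0.13, adjusted p = 0.100. All 4 fibril-associated collagens had negative estimates, from -0.25 to -0.023. The 3 transmembrane collagens ran from -0.26 to 0.22 and Col26a1 stood at -0.15 ± 0.33.

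Among the proteinases, Mmp14 and Mmp2 fell and Mmp24 rose. Mmp14 is the membrane enzyme that activates pro-Mmp2, with Timp2 as an adaptor. Mmp14 stood at 7.61 and 9.95 CPM in the high Cort libraries, 20.4 and 17.05 in 3 h acute, 18.1 and 16.3 in 1 h acute, 20.6 and 16.02 in supplemented ADX, 15.9 and 15.3 in ADX and 22.2 and 21.4 in sham. Both high Cort libraries were far below the other 10, and ADX lay between high Cort and sham without overlap. The log2 fold change of high Cort over ADX was -0.82 ± 0.14, adjusted p = 0.00633. Mmp2 stood at 5.46 and 5.62 CPM in the high Cort libraries, 7.95 and 7.57 in 3 h acute, 7.28 and 7.82 in 1 h acute, 7.80 and 8.70 in supplemented ADX, 8.96 and 7.61 in ADX and 7.22 and 7.57 in sham. Again the other 10 libraries were all above the high Cort pair, and the change against ADX was -0.58 ± 0.11, adjusted p = 0.00784. Mmp24 had 83.4 and 81.7 CPM in the high Cort libraries, 70.95 and 70.5 in ADX and 77.4 and 80.6 in sham, with high Cort the highest of the 12 libraries and a change against ADX of 0.22 ± 0.049, adjusted p = 0.0154. Of the rest, Mmp15 (0.021 ± 0.046), Mmp16 (-0.10 ± 0.090) and Mmp17 (-0.21 ± 0.079, adjusted p = 0.143) did not pass. Mmp9 (gelatinase B), at 0.324 and 0.299 CPM in high Cort and 1.05 and 0.509 CPM in ADX, was too low for a firm estimate (-1.32 ± 0.47, adjusted p = 0.114, 95% interval -2.32 to -0.32). Mmp19, Mmp11, Mmp23 and Mmp28 were also below 3 CPM throughout and did not pass.

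Fn1, Sparc and Timp3 rose. Fn1, fibronectin, stood at 107 and 99.5 CPM in the high Cort libraries, 83.4 and 83.8 in 3 h acute, 89.3 and 88.3 in 1 h acute, 89.2 and 81.4 in supplemented ADX, 79.4 and 74.01 in ADX and 81.9 and 76.3 in sham. Both high Cort libraries lay above the other 10, and the log2 fold change against ADX was 0.43 ± 0.057, adjusted p = 0.000536. Sparc stood at 1981 and 1723 CPM in the high Cort libraries, 1823 and 1867 in 3 h acute, 1630.3 and 1665 in 1 h acute, 1747 and 1542 in supplemented ADX, 1384 and 1367 in ADX and 1436 and 1572 in sham. The ADX libraries were the lowest of all, and high Cort overlapped other groups. The change of high Cort over ADX was 0.43 ± 0.070, adjusted p = 0.00445. Timp3 stood at 127 and 126 CPM in the high Cort libraries, 104 and 100.4 in 3 h acute, 99.6 and 92.3 in 1 h acute, 112 and 107 in supplemented ADX, 98.9 and 103 in ADX and 112 and 122 in sham. It was highest in both high Cort libraries, with a change against ADX of 0.33 ± 0.053, adjusted p = 0.00218.

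The other inhibitors did not pass. Timp4 had 39.5 and 34.3 CPM in the high Cort pair and 29.6 and 33.1 CPM in the ADX pair (0.23 ± 0.076, adjusted p = 0.0871), and both high Cort libraries were again the highest. Timp2 was the most even of all 53 genes, from 556 to 602 CPM over the 12 libraries, a ratio of 1.08, with a change of 0.034 ± 0.041 (95% interval -0.053 to 0.12). Timp1 was below 1 CPM in every library. In RefSeq, Timp1, Timp3 and Timp4 each lie within a synapsin gene (Syn1, Syn3 and Syn2). The estimate for Syn3 had the opposite sign to that of Timp3, at -0.27, and did not pass (adjusted p = 0.175).

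**Figure D4:**
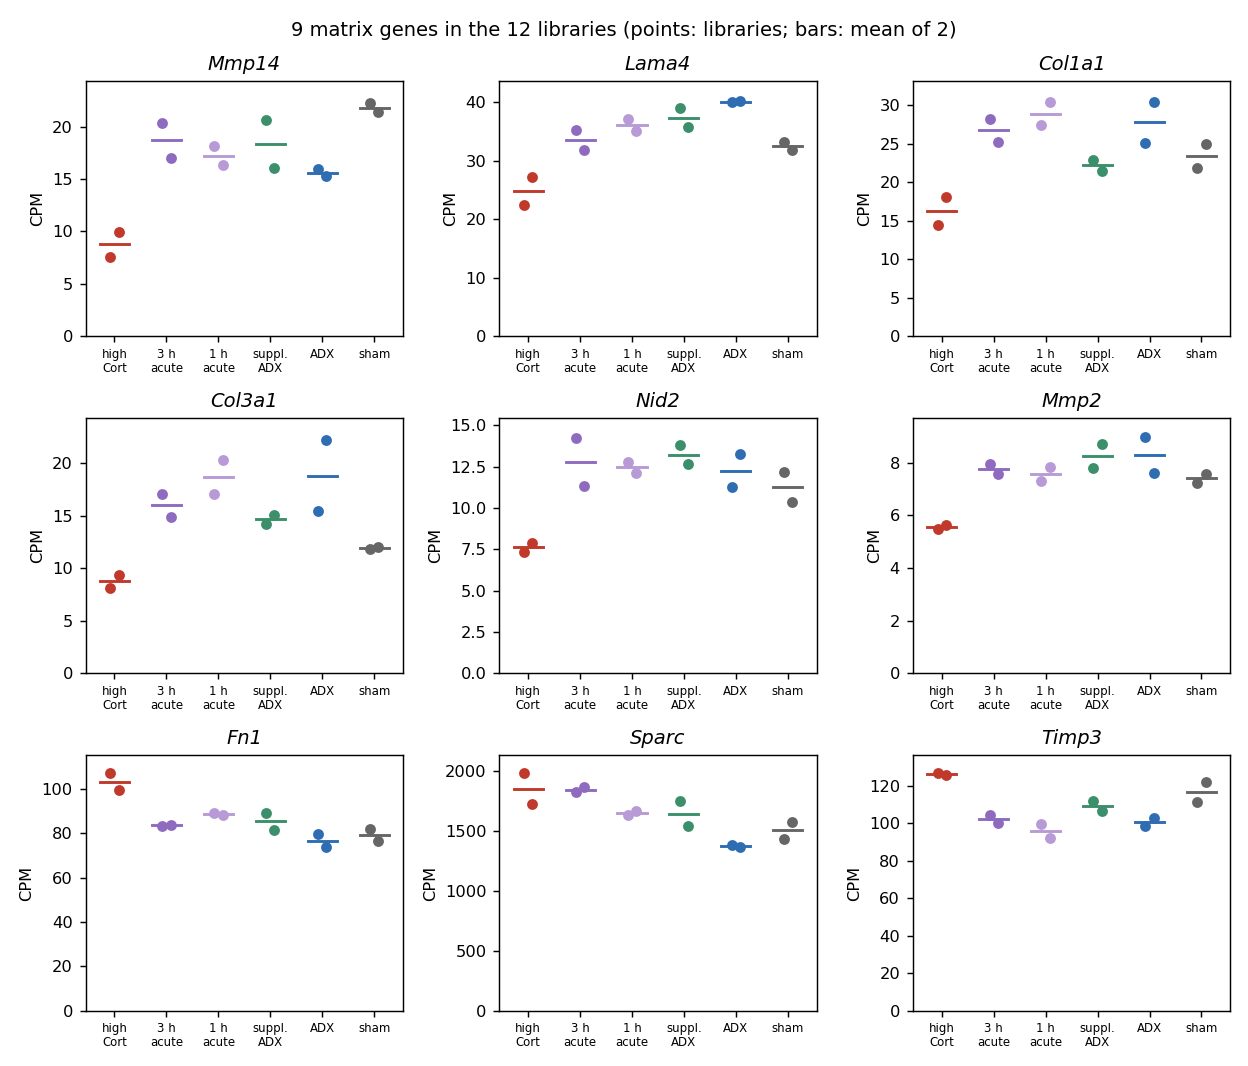
CPM of 9 of the 14 genes called between high Cort and ADX in each library (points) with the mean of each group (bars), axes from 0. High Cort holds the lowest libraries for Mmp14, Lama4, Col1a1, Col3a1, Nid2 and Mmp2, and the highest for Fn1 and Timp3.

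These calls rest on small groups. Lama4, Col1a1 and Fn1 were called in all 8 alternative analyses. Without high Cort replicate 1, the library with the high Rn18s level, 5 of the 14 calls were kept (Lama4, Col1a1, Fn1, Sparc and Timp3), and the log2 fold change was -0.66 for Mmp14 (adjusted p = 0.0708) and -1.01 for Col3a1 (adjusted p = 0.0621). In each of the 10 genes called lower, that library was below the other high Cort library. In each gene called higher (Fn1, Sparc, Timp3 and Mmp24), it was above the other. Without ADX replicate 1 the calls of Mmp14, Mmp2, Timp3, Col5a3, Col11a1, Col5a2 and Mmp24 were lost, and without ADX replicate 2 those of Nid2, Col4a1, Sparc, Col5a3, Col11a1, Col5a2 and Mmp24. Without high Cort replicate 2, Col11a1, Col5a2 and Mmp24 were lost. With the replicate number as a block, Col11a1 (adjusted p = 0.0507) and Col5a2 (adjusted p = 0.0527) were lost. A lone library is assumed in these fits to vary like the other groups.

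Against sham, high Cort changed 3 of the 53 genes: Mmp14 and Lama4 were lower (3.77%, against 0.358% of all genes tested) and Fn1 was higher (1.89%, against 0.513%). Together they are 5.66%, against 0.871% of all genes. Mmp14, at 7.61 and 9.95 CPM in high Cort and 22.2 and 21.4 CPM in sham, fell by a factor of 2.46 (-1.30 ± 0.14, adjusted p = 0.00111), the widest difference of the 53 genes in this comparison and called in all 8 alternatives. Fn1, at 107 and 99.5 CPM in high Cort and 81.9 and 76.3 CPM in sham, rose by a factor of 1.30 (0.38 ± 0.058, adjusted p = 0.00423). Lama4, at 22.4 and 27.3 CPM in high Cort and 33.2 and 31.8 CPM in sham, changed by -0.38 ± 0.085, adjusted p = 0.0489. The groups did not overlap for 25 of the 53 genes, these 3 among them, and the share over all genes is not given here. Without high Cort replicate 1 the adjusted p was 0.101 for Fn1 and 0.571 for Lama4. Without sham replicate 2 it was 0.0720 and 0.128, and Lama4 was also lost without sham replicate 1, with RLE size factors and with the replicate number as a block.

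Several genes stood just outside the threshold in the same comparison. Col5a3 had 39.2 and 49.2 CPM in the high Cort pair and 56.3 and 60.2 CPM in the sham pair (-0.39 ± 0.084, adjusted p = 0.0505). Nid2 had 7.36 and 7.89 CPM in the high Cort pair and 12.2 and 10.4 CPM in the sham pair (-0.56 ± 0.13, adjusted p = 0.0615). The estimate was -0.52 ± 0.12, adjusted p = 0.0892 for Col1a1, 0.30 ± 0.070, adjusted p = 0.0892 for Sparc and 0.60 ± 0.14, adjusted p = 0.0707 for Col7a1. With DESeq2, 6 of the 53 genes and 138 of all 12856 were called here, with Col5a3, Col1a1 and Sparc added to the 3. Col5a3 was also called with RLE size factors, with no filter, with the replicate block and without high Cort replicate 2, and Nid2 with no filter. Col1a1, Sparc and Lamc3 were called without high Cort replicate 2, and Col7a1 without sham replicate 2. Of the 18 endothelial markers, 3 were also lower in this comparison, with sums of 943 and 955 CPM in high Cort and 1056 and 1032 CPM in sham, and meningeal fibroblast markers summed to 264 and 291 CPM in high Cort and 311 and 312 CPM in sham with none called. Mural markers summed to 401 and 415 CPM in high Cort and 439 and 436 CPM in sham, with Pdgfrb lower. Of the astrocyte markers, Glul and Gjb6 were higher and Gfap and Aqp4 lower, with sums of 11561 and 11234 CPM in high Cort and 10642 and 10442 CPM in sham. Haemoglobin genes summed to 26.3 and 22.9 CPM in high Cort and 36.8 and 42.6 CPM in sham, with none called. Thalamus sums were 2778 and 2816 CPM in high Cort and 2292 and 2937 CPM in sham, so that the thalamus sums overlapped. PVH sums did not overlap, at 1153 and 1133 CPM in high Cort and 1291 and 1449 CPM in sham. All 10 PVH markers had negative estimates, and Crh was called lower. The part of these markers in the result was not tested.

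Adrenalectomy for 7 days gave no call among the 53 genes against sham, where 0.233% of all genes were called. At an unadjusted p under 0.05, edgeR listed 13 of the 53 genes (24.5%), against 12.8% of all genes, and DESeq2 called none. The smallest p belonged to Timp3, with 98.9 and 103 CPM in ADX and 112 and 122 CPM in sham (-0.21 ± 0.053, adjusted p = 0.122). Col3a1 had 15.4 and 22.2 CPM in ADX, against 11.8 and 12.04 CPM in sham (0.65 ± 0.16, adjusted p = 0.140), and it was called when ADX replicate 1 was left out. Timp3 was called when sham replicate 1 was left out. For Lama4 the change was 0.30 ± 0.081, adjusted p = 0.145 and for Mmp14 it was -0.48 ± 0.13, adjusted p = 0.161. The groups did not overlap for 31 of the 53 genes, Lama4 and Mmp14 among them, and the share over all genes is not given here. The 95% interval for Mmp14 ran from -0.76 to -0.20. Thalamus markers summed to 1927 and 2103 CPM in ADX and 2292 and 2937 CPM in sham, and their part in these estimates was not tested.

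Seen over the 3 groups processed together, Mmp14 and Col5a3 ran lowest in high Cort, then ADX, then sham by their means, whereas Col3a1, Col1a1, Lama4, Nid2, Mmp2, Col11a1, Col4a1 and Col5a2 ran lowest in high Cort and highest in ADX by their means. The 3 comparisons share libraries, so that these orders are not independent of each other. For Fn1 the mean was 103 ± 5.28 CPM in high Cort, 76.7 ± 3.83 CPM in ADX and 79.1 ± 3.94 CPM in sham (SD, n = 2 each), and ADX differed from sham by -0.044 ± 0.058.

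**Figure D5:**
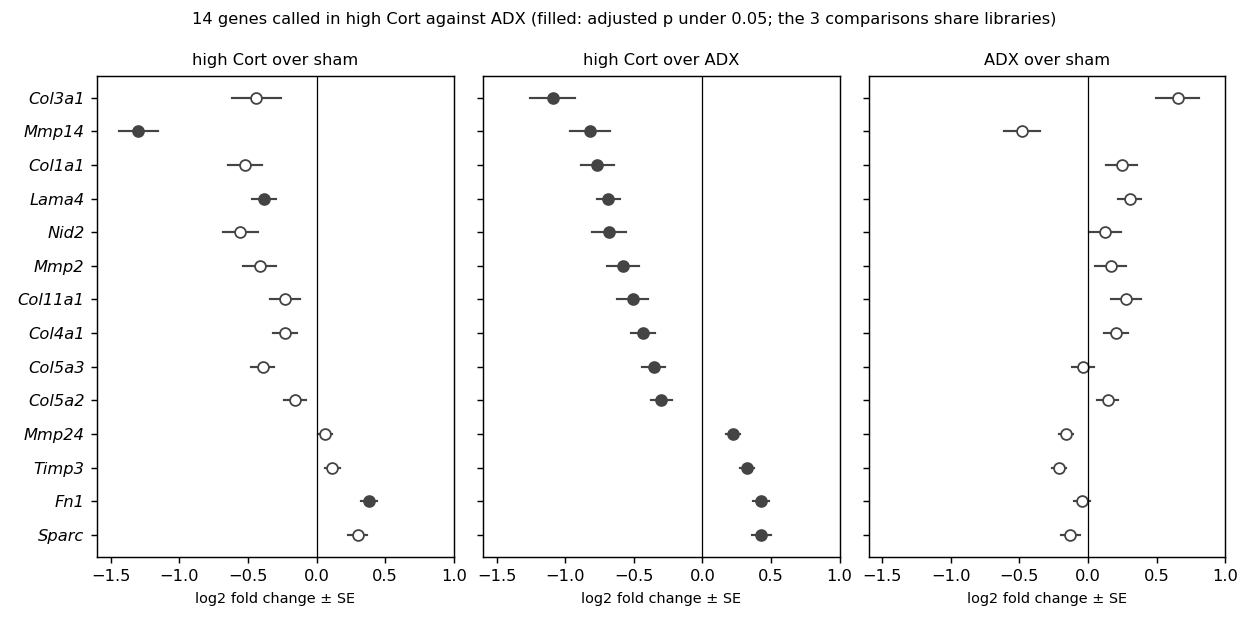
Log2 fold change ± SE of the 14 genes called between high Cort and ADX, in high Cort over sham, high Cort over ADX and ADX over sham; filled points have an adjusted p under 0.05. Mmp14, Lama4 and Fn1 are filled in high Cort over sham, and no point is filled in ADX over sham.

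Corticosterone given to adrenalectomised rats changed none of the 53 genes relative to ADX by edgeR or DESeq2, where edgeR called 0.0311% of all genes, and 8 (15.1%, against 4.05% of all genes) had an unadjusted p under 0.05. The first was Sparc, with 1747 and 1542 CPM in supplemented ADX and 1384 and 1367 CPM in ADX (0.26 ± 0.070, adjusted p = 0.768). Col1a1 had 22.9 and 21.5 CPM in supplemented ADX and 25.1 and 30.5 CPM in ADX (-0.32 ± 0.11), and Fn1 had 89.2 and 81.4 CPM in supplemented ADX and 79.4 and 74.01 CPM in ADX (0.15 ± 0.057). The groups did not overlap for 26 of the 53 genes, these 3 among them, and the share over all genes is not given here. For Mmp14 the interval ran from -0.049 to 0.51, so that a change in either direction remained possible. These groups were processed in separate runs, and a difference between runs and one between groups cannot be told apart.

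Acute corticosterone changed none of the 53 genes by edgeR. At 1 h against supplemented ADX, 0.0467% of all genes were called, and 15 of the 53 (28.3%, against 14.7% of all genes) had an unadjusted p under 0.05. DESeq2 called 1 of the 53. That gene, Col15a1, a basement membrane collagen, had 15.6 and 11.8 CPM in 1 h acute and 21.3 and 19.5 CPM in supplemented ADX (DESeq2 log2 fold change -0.56 ± 0.16, adjusted p = 0.0418; edgeR -0.55 ± 0.18, adjusted p = 0.238). Col9a2, a fibril-associated chain, had 22.9 and 25.2 CPM in 1 h acute and 19.9 and 18.6 CPM in supplemented ADX (0.31 ± 0.083, adjusted p = 0.149). Lamb3 had 4.01 and 2.77 CPM in 1 h acute and 5.55 and 5.01 CPM in supplemented ADX (-0.59 ± 0.16, adjusted p = 0.154). Timp3 had 99.6 and 92.3 CPM in 1 h acute and 112 and 107 CPM in supplemented ADX (-0.18 ± 0.054, adjusted p = 0.176). Thalamus markers summed to 1779 and 1261 CPM in 1 h acute and 2028 and 2066 CPM in supplemented ADX, and their part was not tested. Without 1 h acute replicate 1, which leaves the library of the lowest thalamus sum alone, 7 of the 53 genes (Col4a3, Lamb3 and Timp3 lower and Col11a1, Col2a1, Col9a2 and Lama5 higher) and 624 of all genes were called, whereas none of the 53 was called without replicate 2.

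At 3 h against supplemented ADX, 0.00778% of all genes were called, DESeq2 called none of the 53, and 9 (17%, against 12.5% of all genes) had an unadjusted p under 0.05, a share near that of all genes. Mmp17 came first, with 63.2 and 52.2 CPM in 3 h acute and 46.9 and 45.9 CPM in supplemented ADX (0.31 ± 0.079, adjusted p = 0.183). Thalamus markers summed to 1758 and 1684 CPM in 3 h acute and 2028 and 2066 CPM in supplemented ADX, and their part was not tested. All 10 fibrillar collagens had positive estimates, from 0.048 to 0.37, and none passed. Col2a1 had the highest, with 49.6 and 53.6 CPM in 3 h acute and 40.8 and 39.2 CPM in supplemented ADX (0.37 ± 0.13, adjusted p = 0.300). Between 3 h and 1 h, 0.0233% of all genes were called, DESeq2 called none of the 53, and 2 of them, Mmp28 (0.75 ± 0.33, adjusted p = 0.434) and Sparc (0.16 ± 0.070, adjusted p = 0.434), had an unadjusted p under 0.05. That is 3.77%, against 10.6% of all genes. For Mmp14 the estimates were 0.025 ± 0.13 at 3 h and -0.084 ± 0.13 at 1 h against supplemented ADX.

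Across all libraries the ratio of the highest to the lowest library had a median of 1.64 over the 53 genes, against 1.28 over all genes tested. In 15 of the 53 genes the ratio was above 2, and the share of all genes above 2 was not counted. The widest were low genes, Mmp9 at 3.86 and Mmp28 at 3.23, followed by Mmp14 at 2.92, Lamb3 at 2.80, the low Col26a1 at 2.72 and Col3a1 at 2.72. Low counts widen this ratio, and these members were not matched for level with the other genes.

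For other genes of matrix assembly and turnover, taken by list, most calls were made between high Cort and ADX, as they were for all genes (5.77% called there). Of 22 genes for collagen processing, 2 were lower and none higher: Serpinh1, the collagen chaperone HSP47, averaged 41.7 CPM in high Cort and 59.2 CPM in ADX (-0.51 ± 0.062, adjusted p = 0.000273), and Bmp1, the procollagen C-proteinase, averaged 34.1 CPM in high Cort and 43.5 CPM in ADX (-0.35 ± 0.060, adjusted p = 0.00327). Of 12 other basement membrane genes, the peroxidase Pxdn, which crosslinks collagen IV (-0.36 ± 0.063, adjusted p = 0.00375), and the dystroglycan gene Dag1 (-0.19 ± 0.048, adjusted p = 0.0313) were lower, and Tinagl1 was higher, at 9.53 CPM in high Cort and 5.12 CPM in ADX (0.89 ± 0.13, adjusted p = 0.000930). Among 18 proteoglycans and partners of brain matrix, Hapln2 (0.71 ± 0.11), Spock1 (0.32 ± 0.066) and Spock2 (0.21 ± 0.050) were higher and Ptprz1 (-0.25 ± 0.047) was lower. Of 18 matrix receptors, the integrin genes Itga4 (-0.91 ± 0.14) and Itgb1 (-0.17 ± 0.044) were lower and Itga7 (0.23 ± 0.059) and Itgb8 (0.22 ± 0.058) higher.

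The widest of these differences was in Htra1, a secreted serine protease. It averaged 93.6 CPM in high Cort and 36.4 CPM in ADX (1.36 ± 0.080, adjusted p = 1.66e-06). Htra1 was also higher in high Cort than in sham (0.50 ± 0.078, adjusted p = 0.00790), lower in ADX than in sham (-0.86 ± 0.082, adjusted p = 0.00103) and higher in supplemented ADX than in ADX (0.63 ± 0.081, adjusted p = 0.0149). The other members called among 26 further proteases and inhibitors between high Cort and ADX were Adamts5 (0.61 ± 0.10) and A2m (0.60 ± 0.14), which were higher, and Adamts9 (-0.72 ± 0.10) and Adamts4 (-0.41 ± 0.11), which were lower. Against sham, high Cort was lower for Adamts9 (-0.50 ± 0.10) and Adam17 (-0.32 ± 0.069) and higher for Tinagl1 (0.82 ± 0.13), and Pxdn was higher in ADX than in sham (0.35 ± 0.063). In high Cort over ADX the median log2 fold change was -0.14 for the collagen processing genes, -0.14 for the other basement membrane genes, -0.028 for the proteoglycans, -0.12 for the receptors and -0.011 for the further proteases and inhibitors, against 0.0098 for all genes tested. No gene of these 5 lists was called by edgeR in the acute comparisons, and the calls in these lists were not recomputed with single libraries left out.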

How the data were processed

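Hypothalamic mRNA was sequenced in 12 libraries (6 groups of 2, grouped by their labels). Per the submitters' processing notes, TopHat2 2.1.1, Cufflinks 2.2.1 and CASAVA 1.8.2 were used with the build rn6. The sources used here do not name the annotation or the strand setting. The authors deposited expected counts (fragments per gene) and FPKM values for 17310 genes in each library, per the file headers. Cuffdiff scaled the FPKM values in separate runs, one for high Cort, ADX and sham and another for supplemented ADX and both acute groups, as the condition names in the files show, so FPKM were not compared between runs. Estimates that were not whole (0.751% of values) were rounded, and no matrix gene was affected.

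Counts were fitted with edgeR 4.0.16 in R 4.3.3 (TMM, robust quasi-likelihood, all 12 libraries, minimum count 10 and minimum total 15), with Benjamini-Hochberg adjustment over 12856 genes and a threshold of 0.05, for 7 comparisons. The mean CPM used for the selection was scaled to total counted fragments. All other CPM values were scaled to the TMM-adjusted total of the genes tested. The test was checked on simulated counts with 1 spread for all genes and no differences in dissection, so this check lends no weight to the calls. With 2 libraries against 2, an exact permutation test cannot give p below 0.333. Replicate libraries differed by more than sampling noise. Alternatives were DESeq2 1.42.0, RLE size factors, no filter, the replicate number as a block, and each library left out in turn. Genes named are those called in any comparison and the 3 highest in FPKM of each class, and others near a threshold were named after their values were seen. Lists of matrix genes and cell markers were used for counts and sums. The members and lists were chosen with earlier results of these data known.

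Markers of oligodendrocyte precursors (1 lower, Enpp6), choroid plexus (none) and haemoglobin (none) gave few calls between high Cort and ADX.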

Additional observations from a re-analysis of the deposited data

How the results depend on the processing

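Of the 17 calls of single matrix genes, 4 held in all alternatives run (Mmp14 in high Cort over sham, and Col1a1, Fn1 and Lama4 in high Cort over ADX), and no called gene changed sign. In high Cort over sham, 5 matrix genes were called with no filter and 6 with DESeq2, against 3, and in 1 h acute over supplemented ADX DESeq2 called 1, against 0. Over all genes, no filter gave 48 in ADX over sham, 16 in 1 h acute and 20 in 3 h acute over supplemented ADX, and 5 in 3 h over 1 h, and DESeq2 gave 128, 76, 34 and 24 for the same comparisons and 14 for supplemented ADX over ADX. The cause was not tested. With the replicate number as a replicate block, 3 matrix genes were called in high Cort over sham and 12 in high Cort over ADX, without Col11a1 and Col5a2 (105 and 577 of all genes), 19 of all genes in ADX over sham and 3 in 1 h acute over supplemented ADX. Deviations of same-numbered libraries correlated from -0.259 to 0.0861 over 15 pairs of groups. With 2 libraries a group, each deviation is a single difference, so these values cannot settle whether the numbers pair the samples.

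Leaving out 1 library in turn gave 1 to 7 matrix genes in high Cort over sham, 5 to 13 in high Cort over ADX, 0 to 1 in ADX over sham, 0 to 7 in 1 h acute over supplemented ADX and 0 to 1 in 3 h over 1 h. For all genes it gave 23 to 121, 157 to 386, 4 to 148, 1 to 624 and 0 to 35 in the same comparisons, 0 to 4 in supplemented ADX over ADX and 0 in 3 h acute over supplemented ADX. The lowest counts for high Cort came without its replicate 1, and the highest for 1 h acute without its replicate 1. With 2 libraries a group, a gene that was not called is not shown to be unchanged.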
